A study of Homo sapiens with 6 samples.

Results

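The genes described here encode proteins that bind AU-rich elements, short stretches rich in A and U in the 3′ untranslated regions (3′ UTRs) of many short-lived messenger RNAs. They were taken by symbol, and all 6 members (ZFP36, ZFP36L1, ZFP36L2, ELAVL1, HNRNPD and KHSRP) had a row among the 58051 gene IDs of the count table and passed the low-count filter, which left 16690 genes for testing. RNA-seq was run on the established line A375, grown from a human melanoma with a BRAF mutation. The 3 TGFB1 libraries came from cells starved for 2 h and then given recombinant human TGFB1 at 10 ng/mL for 2 h, and the 3 Vehicle libraries from cells given 4 mM HCl with 1 mg/mL BSA for the same time after the same starvation. The design text calls the libraries technical triplicates of 1 experiment, so p-values measure the spread between these libraries only.

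As background, the ZFP36 family binds AU-rich elements through a tandem pair of zinc fingers and recruits the CNOT deadenylase complex, which shortens the poly(A) tail and starts decay of the bound RNA. ELAVL1, also called HuR, binds similar elements and is best known for protecting its targets, whereas HNRNPD (AUF1) and KHSRP (KSRP) are known mostly for promoting decay. Many family targets are cytokine, growth factor and immediate early transcripts, and the p38 kinase pathway restrains ZFP36 proteins by phosphorylation. ZFP36-family transcripts can carry AU-rich elements themselves, through which the proteins are known to limit their own messages.

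Library totals ran from 32458753 to 34895075 counts with TGFB1 and from 24713894 to 34374668 in Vehicle. On the first principal component the TGFB1 libraries lay between 17.7 and 20.7 and Vehicle replicates 1, 2 and 3 at -37.1, -13.4 and -8.25, so that Vehicle replicate 1 stood farthest out. As a check of the treatment, 6 of 6 TGF-beta feedback genes rose, among them SMAD7 with 61.1 ± 3.49 CPM with TGFB1 and 9.29 ± 1.74 CPM in Vehicle (SD, n = 3 each). CPM are counts scaled to library size with TMM, a correction for library composition. Of 9 melanocytic markers, SOX10 had 0 counts in all libraries and TYR 8 counts in all. MITF and S100B averaged 53.5 and 54.6 CPM with TGFB1 and 62.7 and 58.9 CPM in Vehicle. The rest were scarcer. DCT averaged 3.57 CPM with TGFB1 and 5.08 CPM in Vehicle, PMEL 0.53 and 0.91, and TYRP1 0.32 and 0.44. MLANA (0.50 CPM with TGFB1 and 0.26 CPM in Vehicle) and S100A1 (1.45 and 1.24) averaged higher with TGFB1. The summed melanocytic markers stood at 113 to 117 CPM (here of the raw total) with TGFB1 and 124 to 136 CPM in Vehicle. On the same scale, 6 keratinocyte markers summed to 67.5 to 70.1 with TGFB1 and 51.5 to 71.7 in Vehicle, 6 fibroblast markers to 13.7 to 16.4 with TGFB1 and 15.9 to 19.2 in Vehicle, and 5 leukocyte markers to 5.73 to 6.62 with TGFB1 and 6.31 to 7.68 in Vehicle. The part of these markers in the results was not tested.

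Among the 6 genes, ZFP36L2 was the one that changed. It rose 1.69-fold with TGFB1, a log2 fold change of 0.75 with a 95% interval of 0.59 to 0.92, and the other 5 did not pass the test. A gene counts as changed at an adjusted p under 0.05 in edgeR's quasi-likelihood test, Benjamini-Hochberg adjusted over all 16690 genes. By that rule 2.43% of all tested genes were higher with TGFB1 and 0.887% were lower, 3.31% in all. The count of 1 in 6 is too small to set the group apart from that background.

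ZFP36L2 (ENSG00000152518, chromosome 2, 43222402 to 43226609, minus strand; GENCODE 29 on GRCh38) encodes a family member known from work in lymphoid and blood-forming cells. Its level was 39.2, 37.5 and 43.6 CPM in TGFB1 replicates 1, 2 and 3, against 24.1, 22.3 and 24.8 CPM in Vehicle replicates 1, 2 and 3. Every TGFB1 library lay above every Vehicle library, with a gap larger than the spread within either group. Groups did not overlap for 16.4% of all tested genes. The mean was 40.1 ± 3.13 CPM with TGFB1 and 23.8 ± 1.28 CPM in Vehicle (SD, n = 3 each). The log2 fold change was 0.75 ± 0.08 (SE; edgeR, adjusted p = 3.28e-08), the 80th smallest p of all tested genes but the 417th largest rise. These values rest on 1287, 1299 and 1419 reads with TGFB1 and 590, 680 and 864 in Vehicle. In bulk RNA, more RNA per cell and more cells with the RNA cannot be told apart.

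ZFP36 (ENSG00000128016, chromosome 19, 39406813 to 39409412, plus strand), which encodes tristetraprolin and is known in other cells as a rapidly induced gene, was the scarcest of the 6. It stood at 2.47, 2.14 and 1.72 CPM in TGFB1 replicates 1, 2 and 3, against 1.92, 1.54 and 2.15 CPM in Vehicle replicates 1, 2 and 3. The groups overlapped, and the lowest TGFB1 library fell below 2 of the Vehicle ones. The log2 fold change was 0.17 ± 0.27 (SE; edgeR, adjusted p = 0.885), with a 95% interval of 0.770-fold to 1.64-fold, so a rise as large as that of ZFP36L2 was just outside the interval. Single libraries moved the value, to 0.04 without TGFB1 replicate 1, 0.05 without Vehicle replicate 2, and 0.29 without either TGFB1 replicate 3 or Vehicle replicate 3. Only 56 to 81 reads per TGFB1 library and 47 to 75 per Vehicle library were counted. The coefficient of variation was 17.7% with TGFB1 and 16.4% in Vehicle, where counting alone would give about 12.6%.

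ZFP36L1 (ENSG00000185650, chromosome 14, 68787660 to 68796253, minus strand), a paralog known for limiting cell-cycle transcripts in lymphocytes, showed 16.0, 13.0 and 16.0 CPM in TGFB1 replicates 1, 2 and 3, against 12.7, 12.1 and 14.6 CPM in Vehicle replicates 1, 2 and 3. TGFB1 replicate 2 lay within the Vehicle range while the other TGFB1 libraries lay above it. The log2 fold change of 0.19 ± 0.11 (SE) did not pass (edgeR, adjusted p = 0.544), and its 95% interval ran from 0.972-fold to 1.34-fold, short of the ZFP36L2 rise. It was 0.29 without TGFB1 replicate 2.

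**Figure D1:**
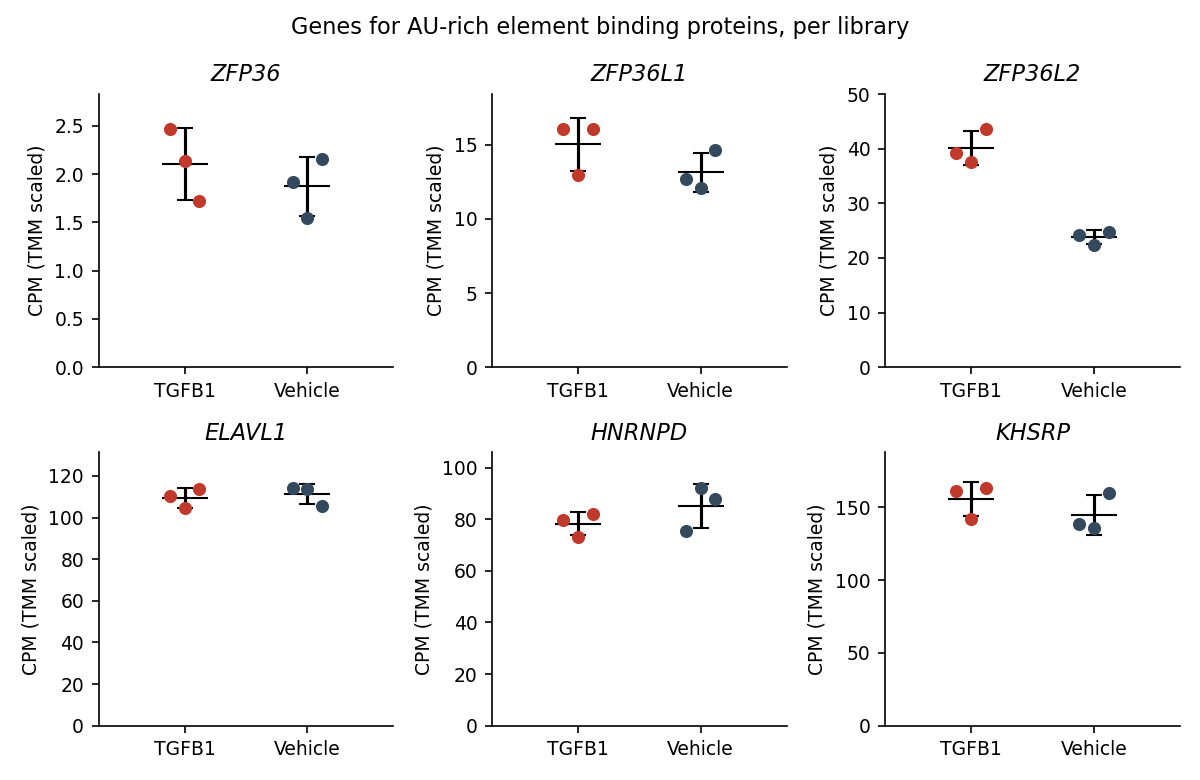
Each panel plots CPM per library for 1 gene (y axis from 0), with TGFB1 libraries in red at the left and Vehicle libraries in dark blue at the right; black lines are the mean ± SD of 3 libraries. Only for ZFP36L2 do the groups separate, at 37.5 to 43.6 CPM with TGFB1 and 22.3 to 24.8 CPM in Vehicle.

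The general AU-rich element binding proteins had more counts than any ZFP36-family gene. ELAVL1 (ENSG00000066044, chromosome 19, 7958579 to 8005659, minus strand) had 110.1, 104.4 and 113.7 CPM in TGFB1 replicates 1, 2 and 3, against 114.3, 113.8 and 105.7 CPM in Vehicle replicates 1, 2 and 3. The ranges were nearly the same. Its log2 fold change was -0.02 ± 0.06 (SE; edgeR, adjusted p = 0.924), and the 95% interval of 0.910-fold to 1.06-fold is the narrowest of the 6. The sign of this value turned to 0.01 without TGFB1 replicate 2.

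HNRNPD (ENSG00000138668, chromosome 4, 82352498 to 82374503, minus strand) had 79.8, 73.1 and 81.9 CPM in TGFB1 replicates 1, 2 and 3, against 75.4, 92.2 and 87.7 CPM in Vehicle replicates 1, 2 and 3. Vehicle replicate 1 was low and lay among the TGFB1 libraries. The log2 fold change was -0.12 ± 0.07 (SE; edgeR, adjusted p = 0.474; 95% interval 0.837-fold to 1.01-fold), and it was -0.20 without Vehicle replicate 1 (adjusted p = 0.107). Leaving out TGFB1 replicate 2 gave -0.07 (adjusted p = 0.766), and leaving out Vehicle replicate 2 gave -0.06 (adjusted p = 0.864).

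KHSRP (ENSG00000088247, chromosome 19, 6413348 to 6424794, minus strand) had 161.1, 142.1 and 163.5 CPM in TGFB1 replicates 1, 2 and 3, against 138.3, 135.6 and 160.1 CPM in Vehicle replicates 1, 2 and 3. Here Vehicle replicate 3 was high and lay among the TGFB1 libraries. The log2 fold change was 0.10 ± 0.06 (SE; edgeR, adjusted p = 0.556; 95% interval 0.983-fold to 1.17-fold), and it was 0.18 without Vehicle replicate 3 (adjusted p = 0.0522). Leaving out TGFB1 replicate 2 gave 0.17 (adjusted p = 0.232), TGFB1 replicate 3 gave 0.07 (adjusted p = 0.896), and Vehicle replicate 2 gave 0.06 (adjusted p = 0.861). Antisense genes share 7.59% of the exonic bases of ELAVL1 and 2.91% of those of HNRNPD, and no opposite-strand exon overlaps those of the other 4 genes. The pseudogenes HNRNPDP2 and KHSRPP1 drew 6 and 23 counts in all libraries together, against 15521 for HNRNPD and 28611 for KHSRP.

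**Figure D2:**
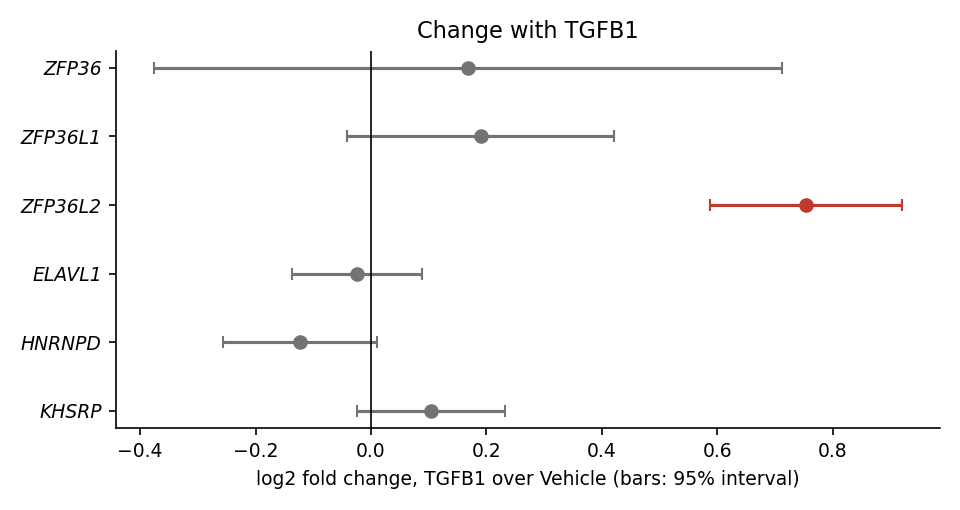
The x axis gives the log2 fold change of TGFB1 over Vehicle from edgeR for the 6 genes, with bars for the 95% interval; red marks an adjusted p under 0.05. ZFP36L2 stands at 0.75, and the intervals of the other 5 include 0.

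Within the family, the rise of ZFP36L2 was also expressed as a ratio of counts inside each library, which needs no scaling between libraries. The log2 ratio of ZFP36L2 to ZFP36L1 counts was 1.29, 1.53 and 1.44 in TGFB1 replicates 1, 2 and 3, against 0.93, 0.89 and 0.76 in Vehicle replicates 1, 2 and 3. Every TGFB1 value exceeded every Vehicle value. The difference of 0.56 had an exact two-sided permutation p = 0.1, the smallest that 3 against 3 libraries allow. The ratio to ZFP36 differed by 0.59, that to ELAVL1 by 0.78, that to HNRNPD by 0.87 and that to KHSRP by 0.65. These too did not overlap and had the same exact permutation p = 0.1. The 5 ratios with ZFP36L2 were chosen after its values were seen. All 5 contain the ZFP36L2 counts, so they restate its rise and are no separate result. With 1 library left out, the difference ran from 0.51 to 0.63 for the ratio to ZFP36L1 and from 0.38 to 0.72 for that to ZFP36, lowest for the ratio to ZFP36 without TGFB1 replicate 3. By contrast, the log2 ratio of ZFP36 to ZFP36L1 counts was -2.84 ± 0.33 with TGFB1 and -2.82 ± 0.13 in Vehicle (SD, n = 3 each; exact permutation p = 1), a difference of -0.02 that ran from -0.14 to 0.17 with 1 library left out. That of ZFP36 to ELAVL1 was -5.71 ± 0.30 with TGFB1 and -5.90 ± 0.29 in Vehicle (SD, n = 3 each; exact permutation p = 0.5). With Benjamini-Hochberg adjustment the smallest p of these 7 ratios stays above 0.05, since none can be under 0.1.

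Levels of different genes were set side by side as CPM per kb of annotated exon. KHSRP was highest, at 34.1 ± 2.57 CPM per kb with TGFB1 and 31.7 ± 2.95 CPM per kb in Vehicle (SD, n = 3 each). ELAVL1 followed, at 15.7 ± 0.68 with TGFB1 and 16.0 ± 0.70 in Vehicle. HNRNPD had 11.2 ± 0.65 CPM per kb with TGFB1 and 12.2 ± 1.25 in Vehicle, and ZFP36L2 10.8 ± 0.85 with TGFB1 and 6.43 ± 0.35 in Vehicle. HNRNPD and ZFP36L2 overlapped with TGFB1 and did not in Vehicle, but with the length of the longest transcript as divisor HNRNPD stood at 15.9 to 17.8 with TGFB1, above the 10.2 to 11.8 of ZFP36L2, and overlapped ELAVL1 (17.3 to 18.9) instead. ZFP36L1 came next, at 2.91 ± 0.34 CPM per kb with TGFB1 and 2.54 ± 0.26 in Vehicle, and ZFP36 last, at 1.05 ± 0.19 with TGFB1 and 0.93 ± 0.15 in Vehicle. These last levels did not overlap each other or any higher one.

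By this measure ZFP36L2 made up most of the family's transcripts in both groups. Its share of the summed counts per kb was 71.0%, 73.9% and 74.8% in TGFB1 replicates 1, 2 and 3, against 65.7%, 66.0% and 63.2% in Vehicle replicates 1, 2 and 3. The share of ZFP36 was 7.13% ± 1.49 with TGFB1 and 9.37% ± 0.88 in Vehicle (SD, n = 3 each), a difference of -2.24 percentage points (exact permutation p = 0.1, the smallest possible) that shrank to -1.39 without TGFB1 replicate 3. That of ZFP36L1 was 19.6% ± 1.26 with TGFB1 and 25.7% ± 0.99 in Vehicle. The shares are parts of one sum, so the larger ZFP36L2 share lowers the others and their falls are no separate result. Mean CPM per kb did not fall, at 1.05 with TGFB1 and 0.93 in Vehicle for ZFP36. For ZFP36L1 it was 2.91 with TGFB1 and 2.54 in Vehicle. The summed family reached 14.9, 13.7 and 15.8 CPM per kb in TGFB1 replicates 1, 2 and 3, against 9.94, 9.16 and 10.6 CPM per kb in Vehicle replicates 1, 2 and 3. With the longest transcript as length, the ZFP36 shares overlapped (exact permutation p = 0.2) and ZFP36L2 held 64.8% with TGFB1 and 55.5% in Vehicle.

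**Figure D3:**
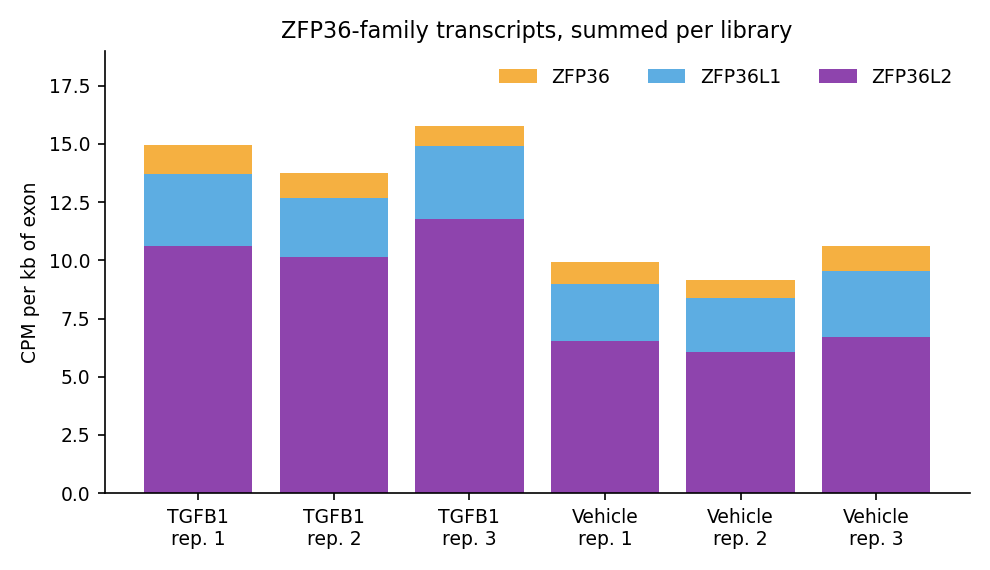
Stacked bars give CPM per kb of exon for ZFP36L2 (purple), ZFP36L1 (blue) and ZFP36 (orange) in each library, TGFB1 at the left and Vehicle at the right. The family sums to 13.7 to 15.8 with TGFB1 and 9.16 to 10.6 in Vehicle, and the purple part makes most of that difference.

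The genes with profiles most like that of ZFP36L2 were found by the root-mean-square difference of log2 CPM, each centred on its own mean over the 6 libraries, among 10560 other genes with a mean of at least 5 CPM. They were the transcriptional corepressor gene BCOR (root-mean-square difference 0.0701, log2 fold change 0.76), the kinase gene PLK3 (0.0715 and 0.79), PHLDB1 (0.0731 and 0.64) and the angiomotin-family gene AMOTL2 (0.0732 and 0.71). PLK3 is itself reported as an AU-rich element target elsewhere. BCOR stood at 66.4 ± 4.19 CPM with TGFB1 and 39.3 ± 2.02 CPM in Vehicle (SD, n = 3 each). The profiles nearest to ZFP36, itself under 5 CPM, were those of ZNF599, MANSC1, ANKRD13B and UBXN11 (0.0407 to 0.0799). Of these, 0 passed the test (edgeR, and also 0 at an unadjusted p under 0.05). Both sets were picked for likeness to their member in these same libraries. Their passing or missing the test follows from that choice and is no separate result.

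The 3′ UTRs were searched on the transcript's own strand for the letters TTATTTATT, the DNA spelling of the 9-base element that ZFP36 proteins are known to prefer; each copy contains the 5-letter core ATTTA. The longest 3′ UTR among the GENCODE 29 basic coding transcripts of a gene was used. This motif was present in 9.68% of the 13211 tested genes with such a UTR. It was found once each in the UTRs of ZFP36, ZFP36L1, ZFP36L2 and ELAVL1 and not in those of HNRNPD and KHSRP. The 4 sites are shown because the same element lies in the transcript that rose and in those that did not pass; the motif is in capitals, coordinates are GRCh38, and minus-strand sites are printed as in the transcript.
ZFP36: atgacgactTTATTTATTctaatatga
ZFP36L1: actgttggaTTATTTATTttagaaatt
ZFP36L2: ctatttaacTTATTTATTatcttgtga
ELAVL1: tttatgtatTTATTTATTgaagtgtga
They lie at chr19:39409197-39409223 (plus strand), chr14:68788078-68788104 (minus), chr2:43223449-43223475 (minus) and chr19:7961829-7961855 (minus). The 5-letter core occurred 5 times in the UTR of ZFP36 (713 bases), 8 times in that of ZFP36L1 (2828 bases), 5 times in that of ZFP36L2 (1917 bases), 13 times in that of ELAVL1 (4904 bases), 2 times in that of HNRNPD and 0 times in that of KHSRP. A match is a description of the sequence and says nothing of binding in these cells.

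Of 27 tested genes for other proteins that bind AU-rich or U-rich elements, 1 was higher and 0 were lower, 3.70% against the 3.31% of all tested genes. The one was ZC3H12A, which encodes Regnase-1, an endonuclease known for cleaving inflammatory transcripts. It had 6.12, 6.24 and 5.71 CPM in TGFB1 replicates 1, 2 and 3, against 1.60, 1.28 and 2.18 CPM in Vehicle replicates 1, 2 and 3, with no overlap. Its log2 fold change was 1.82 ± 0.21 (SE; edgeR, adjusted p = 9.23e-08), larger than that of ZFP36L2 from a lower level. The list's median log2 fold change was 0.02, against -0.01 over all tested genes.

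Deadenylation, decapping and exosome genes, the effectors that ZFP36 proteins call on, gave 0 calls among 37 tested (edgeR), with log2 fold changes from -0.12 to 0.27 and a median of -0.03. At an unadjusted p under 0.05, 4 were higher and 0 lower, 10.8% against 12.3% of all tested genes. The most abundant were the poly(A)-binding protein gene PABPC1, at 410.8 ± 20.5 CPM with TGFB1 and 408.7 ± 25.4 CPM in Vehicle, and the exosome nuclease gene DIS3, at 297.8 ± 15.8 CPM with TGFB1 and 317.3 ± 16.0 CPM in Vehicle (SD, n = 3 each). Exons of BORA and PIBF1 on the other strand share 11.2% of the exonic bases of DIS3. Among 24 tested genes of the p38 kinase pathway, phosphatases and 14-3-3 proteins that act on the ZFP36 family, 0 passed either, with log2 fold changes from -0.24 to 0.24 and a median of 0.03, and at an unadjusted p under 0.05, 1 was higher and 1 lower (8.33%). These shares are near or under the background, and with lists of this size 0 calls at the 3.31% rate of all tested genes is no result about the lists. DESeq2 and limma-voom also gave 0 calls in both lists, and 1 higher and 0 lower among the other binding proteins. The 14-3-3 genes YWHAZ (1024 ± 8.41 CPM with TGFB1 and 1020 ± 27.9 CPM in Vehicle) and YWHAQ (791.9 ± 18.3 CPM with TGFB1 and 795.9 ± 17.2 CPM in Vehicle; SD, n = 3 each) were the most abundant of them. Without Vehicle replicate 3, HNRNPA2B1, BTG1 and YWHAB passed as higher, 1 in each of the 3 lists, with adjusted p of 0.0122, 0.00956 and 0.00403 (edgeR).

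Transcripts reported elsewhere as bound through AU-rich elements by ZFP36 proteins or ELAVL1 moved in both directions. Of 45 tested, 12 were higher and 6 lower, 40.0% against the 3.31% of all tested genes, with a median log2 fold change of 0.05 against -0.01. The list was drawn up with earlier results of these data known and holds genes familiar as TGF-beta or immediate early responders, so the share is a description. TNF, CSF2, IL6, PLAU and DLL4 were too low to test. The 6 with the smallest p all rose, among them JUNB, the cytokine genes IL11 and LIF, JUN and VEGFA, with log2 fold changes of 1.85, 2.48, 1.95, 1.26 and 1.05. Exons of HOOK2 on the other strand share 14.2% of the exonic bases of JUNB. IL11 had 66.4, 69.0 and 66.2 CPM in TGFB1 replicates 1, 2 and 3, against 11.5, 11.7 and 12.8 CPM in Vehicle replicates 1, 2 and 3, with no overlap.

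Further changed targets are named after their values were seen. SNAI1 (log2 fold change 1.98), CCL2 (1.30), PLK3 (0.79), the stress-response gene IER3 (0.57), the kinase gene PIM1 (0.42) and the urokinase receptor gene PLAUR (0.27) rose. IL10 (-1.51), CXCL1 (-0.63), the cyclooxygenase gene PTGS2 (-0.63), the apoptosis inhibitor gene BIRC3 (-0.63) and the chemokine gene CXCL8 (-0.42) fell. IL10 was scarce, at 0.69 CPM with TGFB1 and 1.97 CPM in Vehicle, with 245 counts in all libraries together. Its 95% interval ran from -2.19 to -0.83. IER3 had 143.5, 129.3 and 133.8 CPM in TGFB1 replicates 1, 2 and 3, against 93.3, 87.8 and 93.7 CPM in Vehicle replicates 1, 2 and 3, and an antisense gene shares 26.5% of its exonic bases. CXCL8 had 36.2, 41.6 and 31.6 CPM in TGFB1 replicates 1, 2 and 3, against 54.4, 46.4 and 45.5 CPM in Vehicle replicates 1, 2 and 3. Neither gene's groups overlapped. CXCL1 has close paralogs in CXCL2 and CXCL3, which drew 98 and 146 counts in all libraries together, against 2274 for CXCL1. The assignment of reads between these paralogs was not checked. PIM1 lost its call without TGFB1 replicate 3 (adjusted p = 0.162), and PLAUR without TGFB1 replicate 1 or 2 (0.071 and 0.13) or Vehicle replicate 2 or 3 (0.161 and 0.0811). Examples of listed targets that did not pass, also chosen after their values were seen, were CCND1 (0.13), MCL1 (0.10), CCNB1 (-0.05) and BCL2 (-0.02; edgeR, adjusted p = 0.164, 0.337, 0.734 and 0.969). For CCND1 and MCL1 every TGFB1 library still lay above every Vehicle library, but groups did not overlap for 16.4% of all tested genes. Exons of LTO1 on the other strand share 10.3% of the exonic bases of CCND1.

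**Figure D4:**
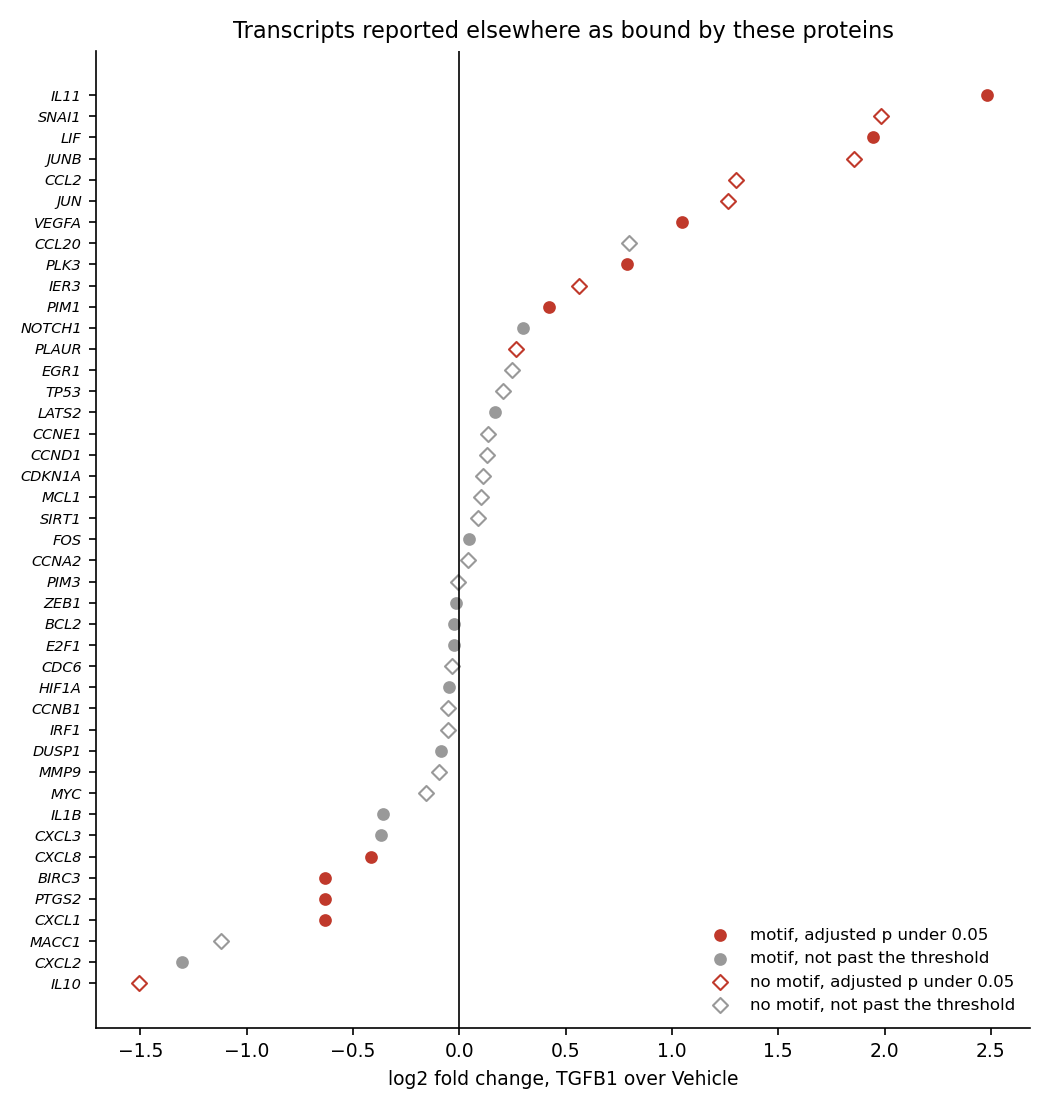
The x axis gives the log2 fold change of TGFB1 over Vehicle for 43 of the 45 tested target transcripts, ordered by value down the y axis. Filled circles carry the 9-base motif in the 3′ UTR and open diamonds do not, and red marks an adjusted p under 0.05; circles and diamonds both lie on either side of 0.

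Of those 45 transcripts, 20 carried the motif. Among these, 5 were higher (IL11, LIF, VEGFA, PLK3 and PIM1) and 4 lower (CXCL1, PTGS2, BIRC3 and CXCL8); of the 25 without it, 7 were higher and 2 lower. Sites from each side are shown to compare them, with overlapping copies of the motif in capitals as 1 run.
IL11: agccagatcTTATTTATTTATTTATTt
LIF: tccgggcccTTATTTATTatttaaaca
VEGFA: tgttatcatTTATTTATTggtgctact
PIM1: gttatgtatTTATTTATTTATTTATTt
CXCL1: gtcttctatTTATTTATTTATTcatta
PTGS2: tgatcatatTTATTTATTtatatgaac
CXCL8: tgtaaagtaTTATTTATTtgaatctac
The first 4 belong to transcripts that rose and lie at chr19:55365948-55365974 (minus strand), chr22:30240959-30240985 (minus), chr6:43786287-43786313 (plus) and chr6:37174986-37175012 (plus). The last 3 belong to transcripts that fell and lie at chr4:73870675-73870701 (plus), chr1:186674318-186674344 (minus) and chr4:73742665-73742691 (plus). Runs of overlapping copies occurred on both sides, in IL11 and PIM1 and in CXCL1. The UTR of IL11 held 6 copies and those of PIM1 and CXCL1 held 3 each.

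Over all tested genes with a UTR, the motif was present in 28 of the 130 lower with TGFB1 (21.5%; exact binomial 95% interval 14.8% to 29.6%, covering counting error over genes only), 42 of the 372 higher (11.3%; 8.26% to 15.0%) and 1279 of all 13211 (9.68%). Put the other way, 2.19% of genes with the motif were lower and 3.28% higher, against 0.855% and 2.77% of genes without it. Genes share regulators and are not independent replicates, and no test was made. The UTRs of the lower genes were longer, with a median of 1858 bases, against 1506 for the higher and 1386 for all, so the shares were also taken by UTR length. In UTRs of more than 500 and up to 1500 bases the motif was in 7 of 40 lower genes (17.5%), 9 of 131 higher genes (6.87%) and 226 of all 4169 (5.42%). Above 3000 bases it was in 13 of 39 lower genes (33.3%), 17 of 77 higher genes (22.1%) and 660 of all 2952 (22.4%). Between these classes, above 1500 and up to 3000 bases, the shares were 7 of 38 (18.4%), 15 of 109 (13.8%) and 351 of 3289 (10.7%). Up to 500 bases they were 1 of 13 (7.69%), 1 of 55 (1.82%) and 42 of 2801 (1.5%), so the lower share there rests on 1 gene.

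The lower genes with the motif, named after their values were seen, included the potassium channel gene KCNJ2 (log2 fold change -1.84), the neurogenic factor gene NEUROG2 (-0.91), KLF5 (-0.56), FST (-0.52), the ERK phosphatase gene DUSP4 (-0.45), the glucose transporter gene SLC2A3 (-0.45) and MITF (-0.23). KLF5 stood at 74.1 CPM with TGFB1 and 109.2 CPM in Vehicle, and SLC2A3 at 58.6 CPM with TGFB1 and 79.9 CPM in Vehicle. MITF kept its call under 9 of 15 alternatives, and lost it without TGFB1 replicate 1 or 3, without Vehicle replicate 1 or 2, with no low-count filter and with limma-voom. ZFP36L2 was among the 42 higher genes with it, beside DLX2 (2.89), the kinase gene NUAK1 (1.87), JAG1 (1.63), ENC1 (1.51) and the glycolytic regulator gene PFKFB3 (0.80).

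**Figure D5:**
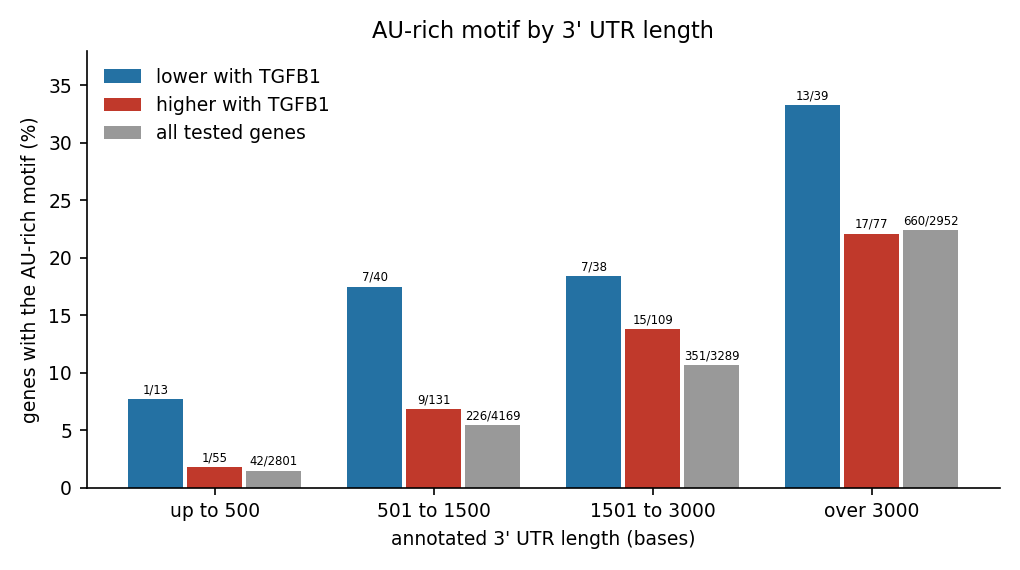
Bars give the percent of genes with the 9-base AU-rich motif (y axis from 0) by annotated 3′ UTR length, for genes lower (blue) or higher (red) with TGFB1 and for all tested genes (grey), with the counts above each bar. The blue bar is the tallest in each length class, at 33.3% over 3000 bases against 22.4% of all genes, with 13 to 40 lower genes per class. In the shortest class it stands for 1 of 13 lower genes (7.69%).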

How the data were processed

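The authors deposited raw read counts per Ensembl gene ID, 1 column per library; per the submitters' processing notes, cutadapt, TopHat2 2.1 and HTSeq were used with GRCh38. Not given in the sources used here are the annotation release, the counting mode and whether strand was used. The table has no rows for unassigned reads. The molecule label reads polyA RNA, but the protocol in the labels is a ribosomal RNA depletion. Gene IDs were given symbols by ID. Genes were kept with filterByExpr (minimum count 10, minimum total count 15), scaled by TMM and tested with edgeR 4.0.16 (robust quasi-likelihood F-test, group as the sole term; R 4.3.3); the SE is the log2 fold change divided by the square root of F. The fit was tested on simulated data. Exon lengths, coordinates and 3′ UTRs came from GENCODE 29, which need not be the counting release. Named genes were all members, the called genes of a list ranked by p, to a limit of 6 (for a list with no call, its 2 genes with most counts), and the 4 nearest profiles. Members and lists were chosen with earlier results of these data known. Alternatives were other scalings, filters and tools (DESeq2 1.42.0, limma-voom 3.58.1), a replicate block and leaving out each library; intervals and counts cover counting error and library spread only. Some items of the target list are not reported here.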

Additional observations from a re-analysis of the deposited data

How the results depend on the processing

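The ZFP36L2 rise kept its call under all 15 alternatives run (log2 fold change 0.69 to 0.80, adjusted p at most 1.14e-05), as did the misses of the other 5 genes; ELAVL1 ran from -0.060 to 0.011 with 1 library left out, above 0 without TGFB1 replicate 2. Over all genes 553 changed, with 365 to 923 when 1 library was left out (365 without TGFB1 replicate 1 and 923 without Vehicle replicate 3). Leaving out 1 library gave 1 to 2 calls among the other binding proteins and 0 to 1 in the decay and regulator lists. Deviations of same-numbered libraries correlated at -0.03, 0.04 and 0.01, and those of other pairs at -0.05 to 0.05. No pairing by number was seen, but 3 libraries per group cannot exclude one. With the replicate block 601 genes changed. ZFP36L2 then stood at 0.75, ZFP36L1 at 0.19, ZFP36 at 0.16, ELAVL1 at -0.02, HNRNPD at -0.12 and KHSRP at 0.11.

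With the 7-letter core TATTTAT, 61.5% of lower genes and 39.0% of higher genes had a match (36.3% of all); with ATTTA these were 91.5%, 76.1% and 74.2%, and with the shortest annotated 3′ UTR 14.6%, 6.18% and 4.47%. These choices were added after seeing the data. PABPC1 turned to -0.0070 with upper-quartile scaling (-0.026 to 0.059 without 1 library), YWHAZ to -0.0072 with it (-0.012 to 0.027), and YWHAQ to 0.0010 with total counts and 0.0044 with no filter (-0.024 to 0.013). The depth limits ZFP36, at 47 to 81 reads per library.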
